A study of Mus musculus with 7 samples.

Results

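Enrichment of 5-methylcytosine (5mC) was followed over the genes of the Smad proteins and their immediate inhibitors in cultured mouse hippocampal neurons. The group comprised Smad1, Smad2, Smad3, Smad4, Smad5, Smad6, Smad7, Ski, Skil and Smurf1, 10 of 21900 protein-coding genes. They were taken as a named list, and every active region of the deposited peak file (mm10) that touched a gene body (RefSeq annotation of GRCm38.p6) or the 1 kb beyond either end was assigned to them. This gave 70 of 133337 active regions, each belonging to a single member.

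The KCl group held 3 libraries from hippocampal neurons treated with 55 mM KCl for 4 h. The untreated group held 3 libraries without KCl. Both came from hippocampi of C57BL/6J embryos at stage E18.5, were grown for 11 days in vitro in medium that held L-glutamic acid at plating, and received the antimitotic agent AraC at medium changes. The assay was MeDIP-seq, in which fragments carrying 5mC are pulled down by an antibody and then sequenced. The 1 pooled input library was not analysed here. No label says that replicates were separate cultures or animals, so the p-values cover only the variation among these libraries, part or all of which may be technical. 5mC enrichment does not report expression, and the neuronal identity of the cultures was therefore not checked by marker genes.

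Ligands of the TGF-β superfamily bind pairs of receptor kinases, which phosphorylate receptor Smads. Smad2 and Smad3 serve the TGF-β and activin receptors and Smad1 and Smad5 serve the BMP receptors, and both kinds join Smad4 to enter the nucleus and regulate genes. Smad6 and Smad7 hold the pathway back at the receptors, Ski and Skil (also called SnoN) are co-repressors that bind Smads on DNA, and Smurf1 is a ubiquitin ligase that marks BMP receptor Smads and, through Smad7, receptors for degradation. In neurons the pathway is known for roles in axon and synapse development. Methylation over gene bodies is common in mammals, while CpG-rich start sites are usually free of it.

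An active region is a stretch in which intervals called in single libraries were merged, and a region counts as called in a library that has an interval in it. The height of a region in a library is the summit height deposited by the authors, in the units of the file. The KCl libraries called 69.4%, 45% and 25.7% of all active regions in replicates 1 to 3, against 64.3%, 64.7% and 53.9% in the untreated libraries. KCl replicate 3 stood apart with the fewest calls, and read depth is unknown. None of the 70 regions rested on a call in KCl replicate 3 alone.

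Start sites of these genes were CpG-rich and none carried an active region. The promoter table from RefSeq (GRCm38.p6) held 6 of the 10 members. It held 8 windows for them, since Smad5 has 3 start sites. Each window was the 250 bases before a start site, and 0 of the 8 overlapped an active region, against 4.49% of 32851 windows over all genes. The member windows held 22 to 53 CG dinucleotides, where the median window held 6. Among the 4869 windows with at least 22, 1.85% overlapped a region, so the absence was shared by most CpG-rich windows. The windows of both BMP receptor Smads, of Smad3 and of Ski are shown because they are CpG-rich stretches without a region in front of the members with the most regions (Smad1, Smad3), the sparse relative Smad5 and the member with the most CG (Ski). CG dinucleotides are in capitals, and the strands read 5′ to 3′.
Smad1, chr8:79399429-79399678, minus strand: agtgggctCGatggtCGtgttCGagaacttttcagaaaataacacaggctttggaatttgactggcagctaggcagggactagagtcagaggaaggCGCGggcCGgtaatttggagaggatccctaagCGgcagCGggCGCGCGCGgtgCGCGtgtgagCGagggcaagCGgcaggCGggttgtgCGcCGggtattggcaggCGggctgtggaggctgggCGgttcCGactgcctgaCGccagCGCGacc
Smad5, chr13:56702760-56703009, plus strand: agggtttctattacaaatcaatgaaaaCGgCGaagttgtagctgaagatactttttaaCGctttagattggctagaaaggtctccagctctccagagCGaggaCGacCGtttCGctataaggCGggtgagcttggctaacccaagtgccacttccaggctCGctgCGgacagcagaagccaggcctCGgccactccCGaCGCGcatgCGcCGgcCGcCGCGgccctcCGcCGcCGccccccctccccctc
Smad3, chr9:63757995-63758244, minus strand: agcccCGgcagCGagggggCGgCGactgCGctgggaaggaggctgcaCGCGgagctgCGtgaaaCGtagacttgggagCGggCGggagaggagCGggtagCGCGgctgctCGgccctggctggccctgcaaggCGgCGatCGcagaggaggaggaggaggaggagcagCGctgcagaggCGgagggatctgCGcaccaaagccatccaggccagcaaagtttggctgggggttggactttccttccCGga
Ski, chr4:155222536-155222785, minus strand: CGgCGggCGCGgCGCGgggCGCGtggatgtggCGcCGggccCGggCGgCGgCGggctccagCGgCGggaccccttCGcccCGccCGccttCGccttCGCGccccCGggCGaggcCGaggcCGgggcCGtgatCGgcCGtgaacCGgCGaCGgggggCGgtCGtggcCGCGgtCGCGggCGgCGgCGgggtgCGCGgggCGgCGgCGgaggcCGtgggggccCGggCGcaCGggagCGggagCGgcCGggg
The Ski window held 53 CG dinucleotides at a GC content of 87.6%, more CG than 99.96% of windows. Smad1's window held 25, the first Smad5 window 22 and the Smad3 window 22. Smad6 and Smurf1 had 27 and 38. The nearest active region lay 2193 bp from the Smad1 window, 2576 bp from that of Smad6, 4102 bp from that of Smad3, and 7866, 9886 and 10711 bp from those of Smad5 (first window), Smurf1 and Ski. The median distance over all windows was 5679 bp. The letters of the Smad box, GTCT or its reverse complement AGAC, occurred in all 3 Smad5 windows and in those of Smad3, Smad6 and Smurf1, and not in those of Smad1 and Ski. They occurred in 82.9% of all windows. The longer form CAGACA or TGTCTG, which contains the shorter one, occurred in the Smurf1 window and in 17.1% of all windows.

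The BMP receptor Smads differed most in how many regions their gene bodies held. Smad1 (chromosome 8, 79338395 to 79399428) held 23 active regions in 61.0 kb, which is 32.9% of all regions of the group. Smad5 (chromosome 13, 56703010 to 56742378), its close relative in the same branch, held 2 in 39.4 kb. Counted over the gene and 1 kb on either side, this made 36.5 regions per 100 kb for Smad1 and 4.83 for Smad5. Of the 5857 protein-coding genes between the shortest and the longest member in length (27.9 to 111 kb), 9 were denser than Smad1, and the median was 5.95. Smad1 was also high when regions called in all 6 libraries were counted alone, with 5 such regions and a density above 97.0% of these genes. Heights in the 23 regions ran from 9 to 39. The regions followed each other at a median spacing of 1.92 kb, and the longest stretch without one was 10.6 kb. In the 100 kb on either side of Smad1 the mean density was 9.5 per 100 kb, so the gene was 3.84 times as dense as its surroundings. Among the genes of this length range, 3.30% reached at least this ratio.

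The TGF-β receptor Smads showed a smaller contrast, and only when partly called regions were counted. Smad3 (chromosome 9, 63646766 to 63757994) held 16 regions, or 14.1 per 100 kb, which was above 85.2% of genes of the length range. Smad2 (chromosome 18, 76241090 to 76311748) held 3, or 4.13 per 100 kb. Of regions called in all 6 libraries each gene held 1. This made 0.883 per 100 kb for Smad3 and 1.38 for Smad2, so Smad3 was not the denser gene by that count. The common mediator Smad4 (chromosome 18, 73634790 to 73703791) held 5, or 7.04 per 100 kb, of which 3 were called in a single library each. Of the 16 regions of Smad3, 1 was called in all 6 libraries and 5 were called in 1 library, where 20.5% and 29.3% of all active regions were. Its heights ran from 8 to 27.

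By all their regions, the inhibitory Smads, the co-repressors and Smurf1 lay between the quartiles of the length range (2.58 and 10.8 per 100 kb). Smad6 (chromosome 9, 63953076 to 64022085) held 5 regions, or 7.04 per 100 kb. Smad7 (chromosome 18, 75367365 to 75395935) held 2, or 6.54 per 100 kb. Ski (chromosome 4, 155154075 to 155222535) held 5, or 7.10 per 100 kb, and its relative Skil (chromosome 3, 31095058 to 31122923) held 1, or 3.35 per 100 kb. Smurf1 (chromosome 5, 144876495 to 144965899) held 8, or 8.75 per 100 kb. By regions called in all 6 libraries alone they spread more widely. Smad7 and Ski were denser than 81.5% and 86.5% of genes of the length range, Smad6 and Smurf1 than 55.4% and 66.0%. Skil had no such region. With windows of 5 kb, Smad7 gained 4 regions and Smad1 and Smad2 gained 1 each, while the other members gained none. One of those beyond Smad7 (chromosome 18, 75397191 to 75397613) had heights of 72, 56 and 39 with KCl and 61, 68 and 55 untreated.

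**Figure D1:**
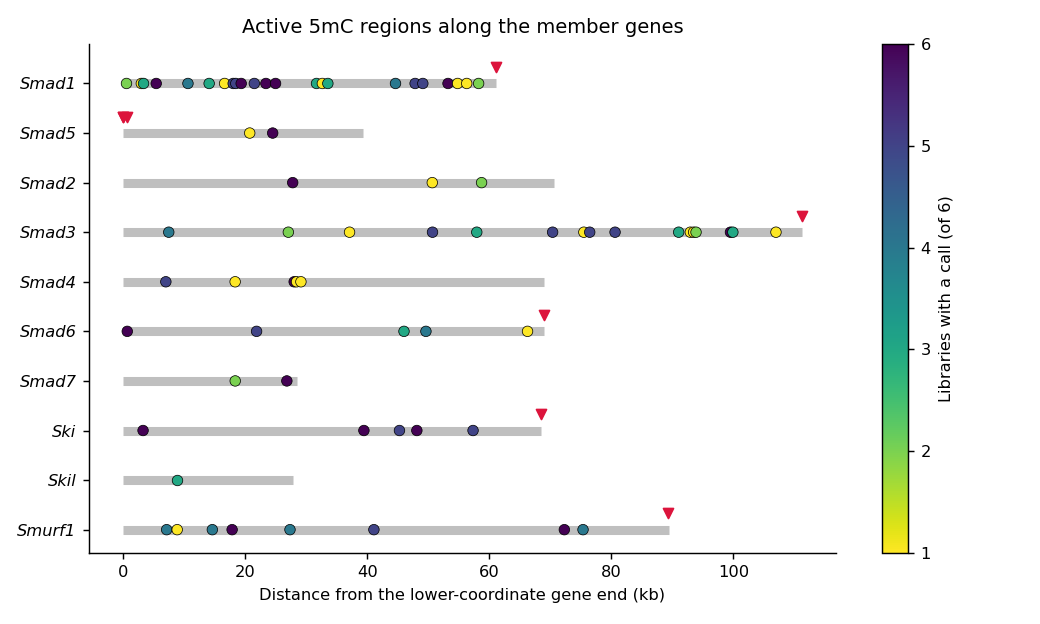
Positions of the 70 active regions along the 10 genes, with distance from the lower-coordinate gene end in kb on the horizontal axis, gene bodies as grey bars, and colour for the number of libraries with a call. Red triangles mark RefSeq start sites where the promoter table held them. Smad1 carries 23 regions and Smad5 carries 2, and no region lies on a start site.

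Relatives outside the group also differed from each other. Smad9, another BMP receptor Smad, held 9 regions (18.7 per 100 kb), 5 of them called in all 6 libraries. Smurf2, the relative of Smurf1, held none in a window of 103 kb. Of the 646 genes of 90 kb or more in the length range, 23 (3.56%) had none. Over the group as a whole, 7 of 10 members were denser than the median gene of the length range. The summed density was 10.7 per 100 kb against 7.40 in genes of this length range, and 7.94 without Smad1. In 8 of 10 members the gene was less dense than the 100 kb on either side, and Smad1 and Smad3 were the exceptions. Over the genes of the length range 52.8% were less dense than their flanks. CpG content of the regions was not analysed here, so CpG density and methylation cannot be told apart.

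**Figure D2:**
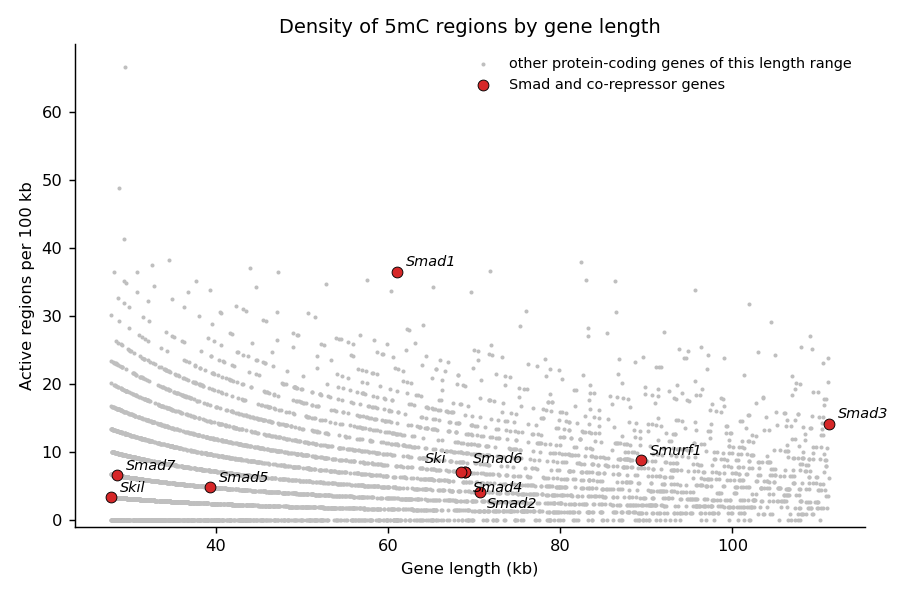
Active regions per 100 kb against gene length in kb for 5857 protein-coding genes (grey points) and the 10 members (red points). Smad1 lies at 36.5, far above the other 9 members, which lie between 3.35 and 14.1.

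Regions of these genes were of ordinary height, and their median length was somewhat above that of all active regions. Their median length was 396.5 bp against 357 bp over all active regions, and 16 of 70 (22.9%) were called in all 6 libraries against 20.5% of all regions. The 16 belonged to 9 of the 10 members, while 51.6% of genes of the length range had such a region. That share was not matched to the members by length within the range. Length matters, since 12.2% of genes of the range had no region at all, against 3.56% of those of 90 kb or more. The 16 regions had a median mean height of 24.8, against 24 for all 27310 regions called in all 6, with 8 of 16 above the overall median. Skil was the exception without such a region. Its single region (chromosome 3, 31103723 to 31104000) had heights of 15 and 12 in KCl replicates 1 and 2 and 12 in untreated replicate 1, and no call in the other libraries.

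Ski carried the highest and the longest regions of the group. Ski region 1, counting from the lower coordinate as for all members (chromosome 4, 155156426 to 155158260), was 1835 bp long, more than 99.97% of all active regions, and lay 65.2 kb downstream of the start site, inside the gene near its far end. Its heights were 61, 41 and 42 with KCl and 66, 50 and 33 untreated. Ski region 4 (155201924 to 155202496) had 53, 39 and 27 with KCl and 49, 58 and 38 untreated. The ranges of the groups overlapped at both. Ski was also the member whose calls were most complete, since 3 of its 5 regions were called in all 6 libraries and the other 2 in 5.

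Among the Smads the highest region lay in Smad4 and the next in Smad2. Smad4 region 3 (chromosome 18, 73662580 to 73663067) had heights of 54, 33 and 22 with KCl and 37, 52 and 32 untreated. Smad2 region 1 (chromosome 18, 76268476 to 76269283) had 32, 31 and 20 with KCl and 34, 27 and 43 untreated. Both pairs of groups overlapped. The region of Smad5 called throughout (chromosome 13, 56727310 to 56727730) had 34, 21 and 12 with KCl and 20, 22 and 24 untreated, so the KCl libraries lay on both sides of a narrow untreated range.

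**Figure D3:**
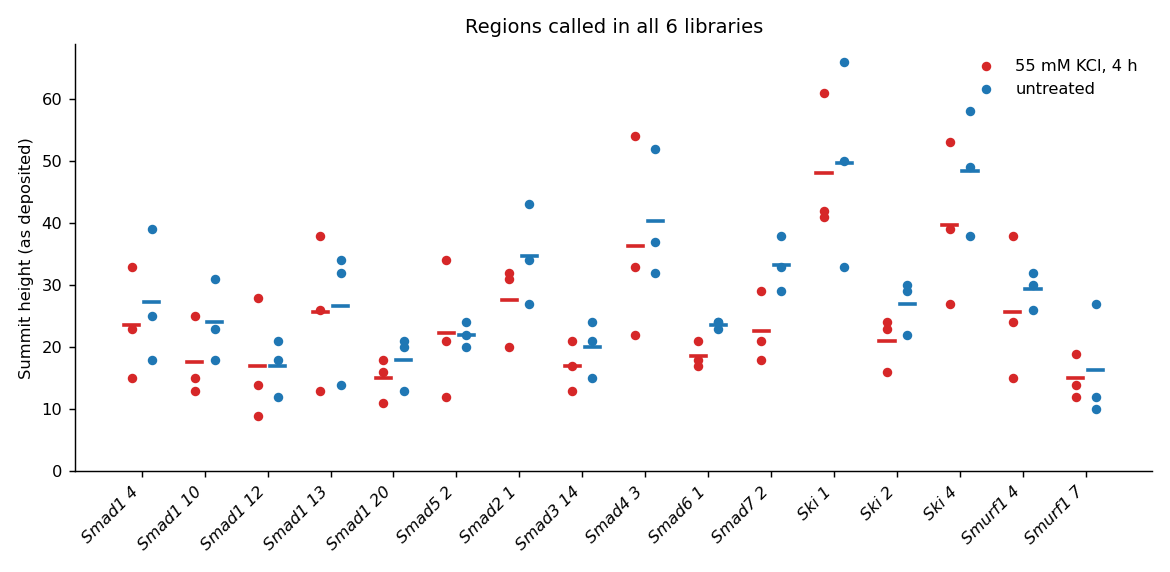
Summit heights as deposited (vertical axis) in the 16 member regions called in all 6 libraries, with 3 KCl libraries (red) left of 3 untreated libraries (blue) and bars at the group means. The KCl and untreated points meet or overlap in 15 regions, and in Smad6 region 1 all KCl points lie below all untreated points.

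Lower regions filled the rest of the group. Smad1 region 10 (chromosome 8, 79357555 to 79357936) had heights of 25, 15 and 13 with KCl and 31, 18 and 23 untreated. Smad1 region 12 (79361495 to 79362090) had 28, 14 and 9 with KCl and 18, 12 and 21 untreated, and region 20 (79391398 to 79391881) had 18, 16 and 11 with KCl and 21, 20 and 13 untreated. In all 3 the KCl libraries were ordered like their numbers of called intervals. The one Smad3 region called throughout, region 14 (chromosome 9, 63746092 to 63746499), had 21, 13 and 17 with KCl and 24, 21 and 15 untreated. Ski region 2 (chromosome 4, 155193268 to 155193800) had 23, 24 and 16 with KCl and 29, 30 and 22 untreated. Smurf1 region 7 (chromosome 5, 144948636 to 144948967) had 19, 14 and 12 with KCl and 12, 27 and 10 untreated, the widest untreated spread relative to its mean among these. In each of these regions the groups overlapped. Set against the untreated library of the same number, a reading chosen after the data were seen, KCl was lower in all 3 pairs in 5 of the 16 regions (Smad1 regions 10 and 20, Smad6 region 1, Smad7 region 2 and Ski region 2) and higher in all 3 in none. Of the 27310 regions called in all 6 libraries, 5055 and 211 did so. After median centring over those regions, KCl was lower in all 3 pairs in Smad7 region 2 and higher in all 3 in Smad1 region 13, against 9.37% and 15.9%. With the centring used for the fits below, which took a smaller set of regions, Smad1 region 13 tied in pair 2 (4.84 in both libraries). Smad7 region 2 stayed lower in all 3 pairs.

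Whether depolarisation changed 5mC enrichment at these genes was tested region by region. Heights were compared as log2(height + 1) with limma over all regions that were called in all 6 libraries and had a mean height of at least 18.7, the 25th percentile. Of the 16 member regions 12 passed this filter, and 4 did not (regions 12 and 20 of Smad1, region 14 of Smad3 and region 7 of Smurf1). None of the 12 was higher and none lower at an adjusted p under 0.05. Over all 20537 tested regions 0% were called higher and 0% lower, with 0 higher and 231 lower at an unadjusted p under 0.05 and a lowest adjusted p of 0.932. After median centring the unadjusted counts were 405 higher and 342 lower, and the adjusted counts stayed at 0. Of the 12, 0 reached an unadjusted p under 0.05. The median log2 change over all regions was -0.25, against -0.02 without KCl replicate 3 and -0.46 without KCl replicate 1. It is subtracted below, so that a relative log2 change states how a region moved against the median region. SEs and the widths of 95% intervals are those of a fit to median-centred heights, and each interval is set around the relative log2 change.

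Smad7 had the lowest p of the group. Its region 2 (chromosome 18, 75393805 to 75394590) had heights of 29, 21 and 18 with KCl and 38, 33 and 29 untreated. The highest KCl value equalled the lowest untreated value. The relative log2 change was -0.31 (limma SE 0.20, 95% interval -0.71 to 0.09, adjusted p = 0.932 as deposited and 1.00 after centring). Averaged over the regions called in all 6 libraries and fitted over 7654 protein-coding genes, Smad7 had -0.33 (limma SE 0.14, adjusted p = 0.887 as deposited and 0.997 after centring), a value that rests on the same single region. The 95% interval of Smad7, set around this relative change, was -0.63 to -0.03. Its unadjusted limma p after centring was 0.0441. That p tests the centred change before the median change over genes (0.018) is subtracted, so it does not belong to exactly the same value as the interval. Under centring 177 genes with a higher value and 117 with a lower value, Smad7 included, had an unadjusted p under 0.05. Of the 7654 genes 0% were called higher and 0% lower after adjustment.

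Smad6, the other inhibitory Smad, was the member whose groups did not overlap. Its region 1 (chromosome 9, 63953417 to 63954097) had heights of 17, 18 and 21 with KCl and 23, 24 and 24 untreated. All KCl values lay below all untreated values, as in 4.14% of tested regions, against 0.0292% with all KCl values above. The relative log2 change was -0.08 (limma SE 0.25, adjusted p = 0.932), and after median centring the groups overlapped. With centred heights 0 of the 12 member regions had all KCl values above or below all untreated values, against 4.67% and 3.89% of tested regions. KCl replicate 3, low in most regions, was the highest KCl library here.

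The receptor Smads moved little against the median region. In Smad1 the relative log2 changes of regions 4, 10 and 13 were 0.05, -0.19 and 0.17 (limma SE 0.22 to 0.24). Smad1 region 13 (chromosome 8, 79363112 to 79363636) had heights of 38, 26 and 13 with KCl and 32, 34 and 14 untreated. Smad1 region 4 (79343570 to 79344066) had 33, 23 and 15 with KCl and 25, 39 and 18 untreated. Libraries within a group differed by more than the group means at both. The values were 0.16 for Smad5, -0.07 for Smad2 and 0.04 for Smad4, with limma SEs of 0.17 to 0.23. Adjusted p lay between 0.932 and 0.962 for these regions.

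Ski and Smurf1 spread around zero in the same way. The relative log2 changes were 0.23 for Ski region 1 (limma SE 0.17, 95% interval -0.12 to 0.58, adjusted p = 0.991), -0.11 for region 2 and -0.06 for region 4. Smurf1 region 4 (chromosome 5, 144894084 to 144894633) had heights of 38, 24 and 15 with KCl and 26, 32 and 30 untreated, a relative log2 change of -0.03 (limma SE 0.20). Over the 12 regions 5 lay above and 7 below the median region, with a median of -0.04 against 0 over all tested regions. The gene averages ranged from -0.33 for Smad7 to 0.14 for Smad5, with Smad1 at 0.01, Smad3 at 0.01 and Ski at -0.00. The 95% intervals of the 12 regions extended 0.32 to 0.50 to either side of their values, and each spanned 0.

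**Figure D4:**
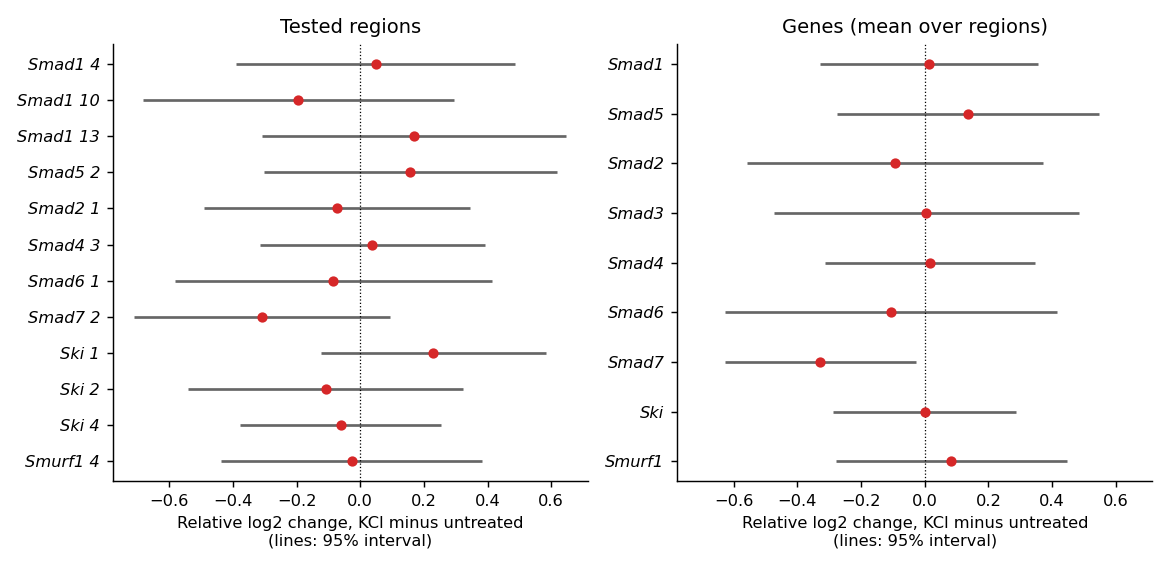
Relative log2 changes with KCl (points) and 95% intervals from limma after median centring (lines) for the 12 tested regions (left) and the 9 genes with a value (right). All region intervals span 0, and the gene interval of Smad7 (-0.63 to -0.03) does not, without passing adjustment over all genes.

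Regions had fewer KCl than untreated calls about as often in these genes as elsewhere. Of the 70 regions 12 were called in more KCl than untreated libraries and 35 in more untreated than KCl libraries (17.1% and 50%). The shares over all active regions were 15.8% and 48.4%. Without KCl replicate 3 the counts were 19 and 25. When each library kept its 34834 highest intervals, as many as KCl replicate 3 called, 8 regions had more KCl calls and 10 more untreated calls, against 12.2% and 12% of all regions. With all deposited intervals, no member region was called in all libraries of one group and in none of the other.

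By gene, Smad1 had calls in 18, 12 and 5 of its 23 regions with KCl and in 20, 16 and 13 untreated. Scaled to the number of intervals of each library, this was 19.3, 19.7 and 14.4 per 100000 intervals with KCl against 22.9, 18.3 and 17.8 untreated, and the ranges overlapped. Smad3 had calls in 9, 8 and 2 of 16 regions with KCl and in 10, 12 and 7 untreated. On the scaled count it had 9.63, 13.1 and 5.74 with KCl and 11.5, 13.7 and 9.60 untreated, again with overlap. Ski had the same unscaled counts in both groups, with calls in 5, 5 and 4 of 5 regions with KCl and in 5, 5 and 4 untreated. On the scaled count it had 5.35, 8.20 and 11.5 with KCl and 5.74, 5.73 and 5.48 untreated. The scaled ranges overlapped, and the scaled count rose where a KCl library had fewer intervals.

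In 7 of the 70 regions the untreated group had at least 2 more calls, against 10.5% of all active regions. Smad1 region 5, Smad6 region 4 and Smurf1 regions 3 and 8 were called in all 3 untreated libraries and in KCl replicate 1 alone. In Smurf1 region 8 (chromosome 5, 144951731 to 144951996) the height was 13 in that KCl library and 13, 16 and 15 untreated. Smad3 region 1 had the same pattern with 22 in KCl replicate 1 and 12, 14 and 22 untreated. Smad3 regions 2 and 13 were called in 2 untreated and 0 KCl libraries. With equal numbers of intervals, Smad3 region 8 (chromosome 9, 63722843 to 63723612) ran the other way and kept a call in 3 KCl and 0 untreated libraries, as did 0.173% of all active regions. Its heights were 20, 15 and 11 with KCl and 14 and 12 in untreated replicates 1 and 2, with no call in untreated replicate 3. The deposited heights of the groups thus overlapped. KCl replicate 3 kept all of its intervals under this cut, so its call at a height of 11 could not be lost, while higher untreated values were dropped. Because KCl replicates 2 and 3 called the fewest intervals, a lost call there is not a measured loss of methylation.

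**Figure D5:**
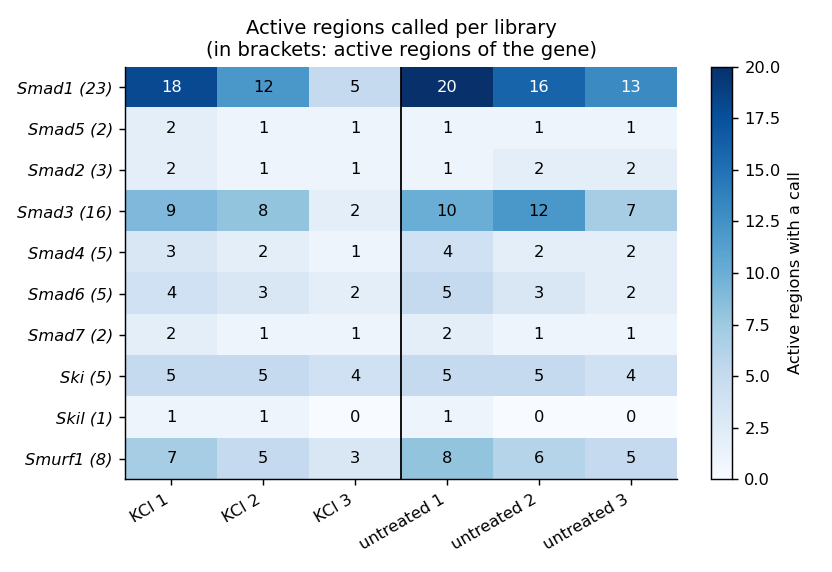
Number of active regions with a call in each KCl library (left of the line) and each untreated library (right of it), for each member, with the gene's total in brackets. Smad1 and Smad3 drop to 5 and 2 calls in KCl replicate 3, while Ski keeps 4 of 5.

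No region of the other pathway genes passed the test either. Over all protein-coding genes 65.3% had a region. Of 16 ligand genes 13 had one, and 6 of their 11 tested regions lay above the median region. Of 13 receptor genes 11 had one, with 4 of 10 tested regions above. Acvr2a, an activin type II receptor gene, and Bmpr2, a BMP type II receptor gene, were the exceptions and had no region in 89.2 and 114 kb. The absence was not shared by other type II receptor genes, since Acvr2b held 13 regions and Tgfbr2 held 10. For proteins that bind, modify or anchor Smads the counts were 15 of 19 genes and 14 of 20 tested regions, for response genes 8 of 14 and 0 of 3, and for secreted antagonists 7 of 8 and 1 of 2. In each list 0 regions passed in either direction, with a lowest adjusted p of 0.932. The median relative log2 changes were 0.04, -0.01, 0.06, -0.09 and 0.00 in this order of lists, against 0 over all tested regions.

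In each of these lists the region with the lowest p in each direction of the deposited change was taken. Their relative log2 changes ran from -0.32 to 0.27. The deposited change was negative in 90.6% of all tested regions, so the choice favoured lower regions. Lists without a positive deposited change have no named higher region, also where some of their regions lay above the median region. Smad9 region heights (chromosome 3, 54766125 to 54766870) were 37, 26 and 20 with KCl and 35, 45 and 41 untreated, with a relative log2 change of -0.32 (limma SE 0.18). The region at Tgfb1 (chromosome 7, 25686043 to 25686746), a TGF-β ligand gene, lay outside the gene, overlapped B9d2 and had -0.29. Tgfbr2, the TGF-β type II receptor gene, had -0.17, Col1a1, a collagen gene, -0.29, and the antagonist gene Lefty2 -0.11. Regions with a positive deposited change were found in Eng, a co-receptor gene (relative log2 change 0.25), and Nedd4l, a ubiquitin ligase gene (0.27). Adjusted p was at least 0.932 for each. Of the Gadd45 genes named in the study's title, Gadd45a had 1 region and Gadd45b and Gadd45g had none, and no Gadd45 region was tested.

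Marker genes of neurons and of other cell types were listed as a description only. A region in a marker gene has no bearing on expression and does not tell which cells the cultures held. Of 7 neuron genes 6 had a region, of 4 astrocyte genes 4, of 4 oligodendrocyte genes 4 and of 4 microglia genes 3, against the same 65.3% of all protein-coding genes, and 0 of their 9, 2, 8 and 3 tested regions passed. Leading regions, chosen in the same way, lay in Rbfox3 (relative log2 change 0.42) and Prox1 (-0.34) for neurons, Aldh1l1 (-0.22) for astrocytes and Cx3cr1 (-0.34) for microglia. For oligodendrocytes the leading region was that of Cspg4 (-0.03), which lay outside the gene, within 1 kb of its end.

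The gene-average profiles most like those of the members were picked by Pearson correlation over the 6 libraries, after median centring and among genes on other chromosomes. For Smad7 these were Calr4 (r = 0.988), Mri1 (0.984) and Tprg (0.979) among 7391 genes, and for Smad3 Krt10 (0.991), Atf6 (0.987) and Gm29733 (0.987) among 7226, where the last lies inside Atf6. All values share the same 6 libraries and their depth, and both members rest on 1 region each.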

How the data were processed

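MeDIP-seq values of 3 KCl and 3 untreated libraries came from 1 deposited peak file, and read depth is unknown. Per the labels' protocols a company built the libraries and analysed the data. The submitters' processing notes name BWA, SICER and mm10, without versions. Summit heights are a signal deposited by the authors as whole numbers, with no stated scaling. For every library, a region's height is that of the tallest summit within it, and is missing where nothing was called. Regions and gene averages were compared with limma 3.58.1 in R 4.3.3 on log2(height + 1), a scale that understates changes of low regions, with an intensity trend and Benjamini-Hochberg adjustment at 0.05, two-sided. The code was tested on simulated data. Same-numbered libraries deviated together weakly (correlations of 0.11, 0.11 and 0.11, other pairs -0.09 to -0.01). Deviations from a group mean depend on each other, so the negative values of the other pairs are no separate evidence. No label states a pairing, and the main fit used none. What the numbers stand for is not stated, and the replicate block was an alternative. Named genes were all members, the tested region with the lowest p in each direction of each other list, the Gadd45 genes and the closest profiles to Smad3 and Smad7. Members and lists were chosen with earlier results of these data known. Flank densities of 100 kb were added after the data were seen. Alternatives were other scaling, filters, pseudocounts, windows, blocks and leaving out single libraries. Coordinates are 1-based. The table of gene positions holds no exons, so exon, intron and UTR were not assigned.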

Additional observations from a re-analysis of the deposited data

How the results depend on the processing

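No region and no gene passed under any alternative that was run, and the count stayed at 0, also with the replicate block (lowest adjusted p 0.857 for regions and 0.824 for genes) and with the replicate block and median centring (0.461 and 0.946). The block changed no call. Without single libraries the lowest adjusted p lay between 0.0842 and 1 for regions, the lowest without KCl replicate 1. Relative log2 changes of 4 of 12 tested member regions kept their sign under all alternatives: Smad7 (-0.39 to -0.21 without single libraries), Smad5 (0.02 to 0.31) and Ski regions 1 (0.06 to 0.46) and 4 (-0.13 to -0.00). The others turned sign when single libraries were left out, with ranges of -0.12 to 0.25, -0.458 to 0.0014 and -0.14 to 0.35 for Smad1 regions 4, 10 and 13, -0.32 to 0.18 for Smad2, -0.0742 to 0.15 for Smad4, -0.40 to 0.19 for Smad6, -0.197 to 0.0311 for Ski region 2 and -0.136 to 0.0779 for Smurf1. Where 2 calls per group sufficed and missing heights were left out of the fit, Smad1 region 4 (-0.0116) and Smad4 (-0.0215) also turned. Gene averages without single libraries ranged over -0.0805 to 0.12 for Smad1, -0.0227 to 0.295 for Smad5 and -0.34 to 0.15 for Smad2. The ranges were -0.11 to 0.20 for Smad3, -0.12 to 0.21 for Smad4, -0.40 to 0.21 for Smad6 and -0.42 to -0.23 for Smad7. Those of Ski and Smurf1 were -0.0847 to 0.105 and -0.0255 to 0.22. Ski turned to 0.0191 with quantile normalization and to 0.0185 with the height filter, and stood at -0.13 with 2 calls per group. Smurf1 turned to -0.0285 with that filter and -0.10 with 2 calls per group. The cause of these turns was not tested. With equal numbers of intervals per library 10 member regions had more untreated calls in place of 35. Without single libraries the counts ran from 25 to 42 for more untreated calls and from 9 to 19 for more KCl calls. Regions called in all 6 libraries numbered 16 in place of 70, by construction. Unknown depth leaves a missing call ambiguous.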
